A study of Mus musculus with 8 samples.

Results

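The heat shock proteins and the DnaJ (J protein) cochaperones were taken as the mouse genes whose symbol is Hsp or Dnaj followed by letters, a number and an optional letter. This rule, which uses no measured value, found 72 of the 23343 gene symbols in the deposited tables, 27 of them Hsp and 45 Dnaj genes. RNA had been sequenced from cells sorted as spermatogonia from C57BL/6 testes at postnatal day 7, in 8 libraries. There were 2 for each of 4 groups: cKit+ cells labelled PRC1dKO (cKit dKO), cKit+ cells labelled PRC1ctrl (cKit control), Thy1+ cells labelled PRC1dKO (Thy1 dKO) and Thy1+ cells labelled PRC1ctrl (Thy1 control). Polycomb repressive complex 1 (PRC1) places ubiquitin on histone H2A and holds developmental genes silent. Sorting on Thy1 enriches undifferentiated spermatogonia, and the receptor Kit appears as they start to differentiate. The labels give neither the deleted alleles, nor what drives the deletion, nor the genotype of the controls, and they do not say whether replicates came from separate animals, so the p-values measure the spread between these libraries, which may be technical.

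HSP70 proteins bind unfolded stretches of other proteins and release them in a cycle of ATP hydrolysis. J proteins deliver the client and trigger hydrolysis, and nucleotide exchange factors, among them the HSP110 proteins Hsph1, Hspa4 and Hspa4l, reset the cycle. Clients that fold no further on HSP70 are passed to HSP90 or to the ring-shaped CCT chaperonin. Under heat or other protein damage the factor HSF1 binds heat shock elements and raises Hspa1a, Hspa1b, Hsph1, Hspb1, Dnajb1 and Dnaja1, whereas Hspa8 and most J proteins are made constantly. Male germ cells add chaperones of their own, such as Hspa2 and Hspa1l, mostly from meiosis onward.

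Library totals ran from 6763908 to 10976869 counts, of which the 72 genes held 0.742% to 0.880%. CPM values are counts scaled to TMM-adjusted library sizes. Log2 fold changes are given ± standard error from the quasi-likelihood test of edgeR, with p-values adjusted (Benjamini-Hochberg) over all 14907 genes tested. Of the 72 genes, 65 were tested, and 59 of those were above the count filter, 1.31 CPM, in all 8 libraries. The 7 not tested were Dnajc5b, with 0 counts in every library, Dnajb8 with 2 counts over the 8 libraries, Hspb3 with 4, Dnajc22 with 5, Hspb9 with 17, Hspb2 with 18 and Dnajb7 with 21. Thy1 mRNA was at 1.28 and 0 CPM in cKit dKO, 0.433 and 1.15 CPM in cKit control, 12.8 and 15.8 CPM in Thy1 dKO and 26.0 and 18.0 CPM in Thy1 control. Kit mRNA was at 1059 and 1012 CPM in cKit dKO, 1049 and 938 CPM in cKit control, 311 and 281 CPM in Thy1 dKO and 301 and 317 CPM in Thy1 control. Neither catalytic PRC1 gene, Rnf2 or Ring1, passed the edgeR test in either dKO comparison. Rnf2 had 134 and 141 CPM in cKit dKO against 146 and 125 CPM in cKit control, and 128 and 126 CPM in Thy1 dKO against 103 and 120 CPM in Thy1 control. Ring1 had 12.0 and 4.08 CPM in cKit dKO against 4.50 and 5.23 CPM in cKit control, and 2.59 and 5.17 CPM in Thy1 dKO against 3.16 and 2.70 CPM in Thy1 control. Gene-level counts cannot show the loss of single exons, so the dKO labels are used here as names.

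Markers of several testis cell types differed between the groups. Somatic markers were present in all 8 libraries, so their RNA was not from spermatogonia alone. In bulk samples, fewer cells of a type and less RNA per cell cannot be told apart. The 26 core germ cell markers (Ddx4 and Dazl among them) summed to 791 and 1096 CPM in cKit dKO against 3279 and 2594 CPM in cKit control. Of these markers 0 were higher and 21 lower there, beside 13.2% and 15.4% of all genes tested. In Thy1 dKO they summed to 3399 and 3032 CPM, against 3785 and 4107 CPM in Thy1 control. The 16 Sertoli cell markers summed to 2072 and 2085 CPM in cKit dKO against 1374 and 1421 CPM in cKit control. Of the 15 tested, 7 were higher and 1, Dmrt1, was lower. The 8 Leydig cell markers summed to 15420 and 18040 CPM in cKit dKO, 11060 and 13280 CPM in cKit control, 3753 and 4196 CPM in Thy1 dKO and 2557 and 3180 CPM in Thy1 control. Hsd3b1 alone averaged 11443 CPM in cKit dKO and 7702 CPM in cKit control. In that comparison 5 of the 8 were higher and 1, Cyp17a1, was lower (-0.72 ± 0.25, edgeR adjusted p = 0.039). The 12 peritubular and stromal markers ran the other way between populations, with 6217 and 4977 CPM in cKit dKO, 3213 and 3120 CPM in cKit control, 11620 and 12060 CPM in Thy1 dKO and 13920 and 10320 CPM in Thy1 control. The 10 endothelial markers summed to 418 and 444 CPM in cKit dKO against 214 and 216 CPM in cKit control, and to 479 and 497 CPM in Thy1 dKO against 325 and 326 CPM in Thy1 control. The 11 macrophage markers summed to 150 and 542 CPM in cKit dKO, 185 and 421 CPM in cKit control, 1314 and 1465 CPM in Thy1 dKO and 959 and 1084 CPM in Thy1 control. Markers of late spermatogenesis, the stage of many testis chaperones, summed to between 3.29 and 12.1 CPM, and Prm1 was at 0 in all libraries. The part of these shifts in the chaperone results was not tested.

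Levels between genes were compared as deposited RPKM, which divides by transcript length, using the entry with most counts for each gene. The constitutive HSP70 gene Hspa8 stood highest, with a mean of 109 RPKM over the 8 libraries. It was followed by Hspa5 (BiP, the HSP70 of the endoplasmic reticulum) at 73.0, Hspd1 (HSP60, the mitochondrial chaperonin) at 53.4, Hspa4 at 51.8 and Dnajb1 (HSP40) at 48.0 RPKM. The inducible HSP70 genes were far lower in level, Hspa1a at 3.69 and Hspa1b at 1.95 RPKM, and the testis-linked Hspa4l and Hspa2 stood beside them at 3.82 and 3.79 RPKM. Hspg2, which encodes the basement membrane proteoglycan perlecan and matches the rule by name only, drew the most counts of all, 19.3% of those of the 72 genes. The name also brought in Hspb11 (an intraflagellar transport subunit), Hspbp1 and Hspbap1, so 4 of the 72 are not themselves heat shock or J proteins.

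In cKit dKO against cKit control, 22 of the 65 tested genes passed the edgeR test, 8 higher and 14 lower, which is 33.8% of them against 28.6% of all genes tested (13.2% higher and 15.4% lower). The share of the family that changed was near that of all genes, and its median log2 fold change was -0.02 against 0.03 for all genes. The inducible pair Hspa1a and Hspa1b was higher, the small heat shock protein genes of muscle Hspb6 and Hspb7 were higher, and the HSP110 genes, the ribosome-linked J protein gene Dnajc2 and the testis-linked Hspa4l and Dnajc5g were lower. These directions hold for scaling to the whole transcriptome. Scaling instead on 23 core germ cell genes moved the median of all genes to 1.60, and 11 of the 14 lower genes then had positive values (0.36 to 1.13), all below that median.

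**Figure D1:**
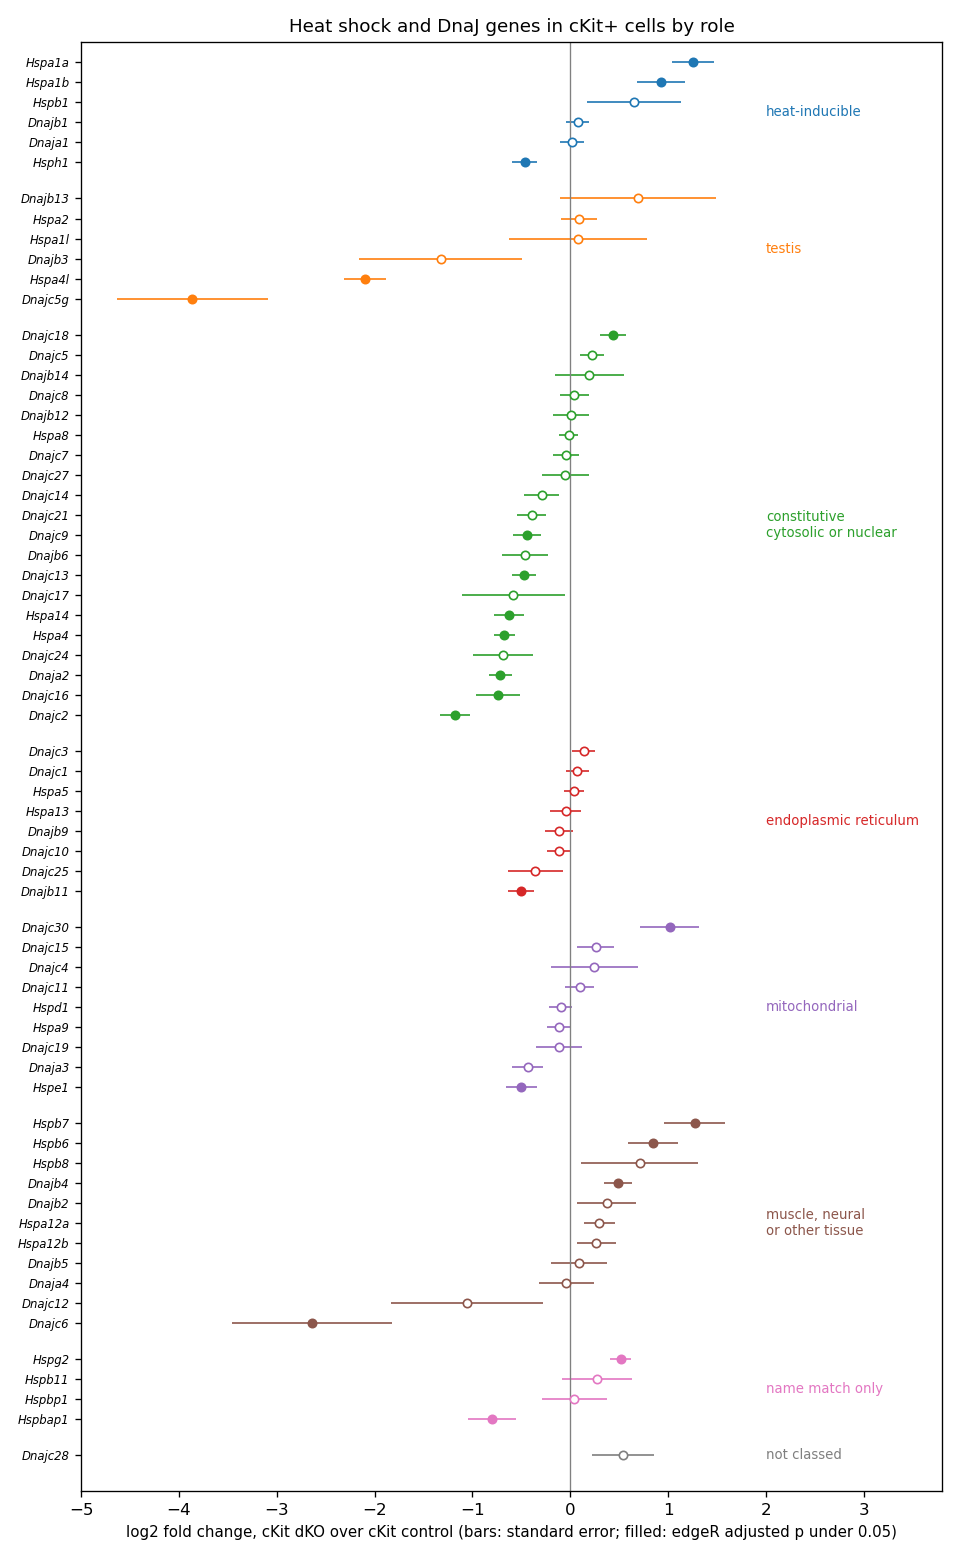
Log2 fold change of the 65 tested genes in cKit dKO over cKit control, grouped by role (bars are standard errors, filled points have an edgeR adjusted p under 0.05). Hspa1a at 1.26 and Hspa1b at 0.93 stand apart from Dnajb1 and Dnaja1 near 0, and Hspa4l at -2.10 and Dnajc5g at -3.86 are the lowest of the testis class. Under germ cell scaling Hspa4l did not pass, and 11 of the 14 lower genes had positive values.

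Hspa1a and Hspa1b encode the classic stress-induced HSP70 and lie on the reverse strand of chromosome 17 (mm10 34969359 to 34972156 and 34956429 to 34959238). Their RefSeq promoters (GRCm38.p6, 250 bases before to 50 after the start) are shown because both genes rose and because the windows differ at only 4 of 300 positions. Capitals mark the heat shock element core, GAANNTTC or TTCNNGAA, searched on both strands, which begins 104 bases before the start in both.
Hspa1a, chr17:34972107-34972406, reverse strand: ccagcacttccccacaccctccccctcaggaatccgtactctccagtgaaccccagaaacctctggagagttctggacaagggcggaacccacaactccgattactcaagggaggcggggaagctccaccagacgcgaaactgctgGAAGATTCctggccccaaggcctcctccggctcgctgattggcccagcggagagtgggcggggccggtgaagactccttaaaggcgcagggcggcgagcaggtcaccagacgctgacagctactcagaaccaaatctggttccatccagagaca
Hspa1b, chr17:34959189-34959488, reverse strand: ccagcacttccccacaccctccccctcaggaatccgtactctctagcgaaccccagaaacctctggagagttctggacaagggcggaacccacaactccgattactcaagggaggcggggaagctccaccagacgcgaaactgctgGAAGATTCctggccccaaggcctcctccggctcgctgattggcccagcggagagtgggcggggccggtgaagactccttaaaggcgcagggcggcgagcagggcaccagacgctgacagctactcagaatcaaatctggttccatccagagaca
The motif occurred in 15.1% of all 32851 promoter windows. Counted by gene, 17.0% of the 27025 genes with a RefSeq promoter had it in a window, beside 16 of the 60 members (26.7%). By class it was present in 5 of 6 heat-inducible genes (all but Dnajb1), 1 of 9 testis, 2 of 16 constitutive, 1 of 7 endoplasmic reticulum, 2 of 6 mitochondrial and 5 of 11 tissue-restricted genes, and in 0 of the 4 genes matched by name only. A match is a description of the letters, not a binding site.

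Hspa1a had 52.5 and 86.7 CPM in cKit dKO, 26.2 and 32.2 CPM in cKit control, 24.9 and 26.3 CPM in Thy1 dKO and 19.5 and 20.4 CPM in Thy1 control. Both cKit dKO libraries lay above the other 6. The change in cKit was 1.26 ± 0.21 on the log2 scale, a 2.39-fold rise (edgeR adjusted p = 0.000526), and it passed without each library in turn (0.88 to 1.62).

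Hspa1b had 23.9 and 37.8 CPM in cKit dKO, 17.1 and 15.2 CPM in cKit control, 12.6 and 16.9 CPM in Thy1 dKO and 14.7 and 14.0 CPM in Thy1 control. The 2 cKit dKO libraries again exceeded all others, by 0.93 ± 0.25 over cKit control (edgeR adjusted p = 0.012). The test was no longer passed without cKit control replicate 2 or without cKit dKO replicate 2 (0.59 to 1.27 over all libraries left out). Nor was it passed on the deposited RPKM (0.46, limma adjusted p = 0.166), where Hspa1a still passed (0.79, limma adjusted p at most 0.0188). Of 50-base windows, 58.8% of the Hspa1a transcript also occur in Hspa1b and 62.3% of Hspa1b in Hspa1a, so the split of reads between the copies is uncertain. In addition, 19.0% of the exon bases of Hspa1a, and 0 of those of Hspa1b, overlap a gene on the opposite strand (Gm20481), and the strand setting of the counting is not known here. Counted together, a choice made after seeing the data, they rose by 1.15 ± 0.19 (edgeR adjusted p = 0.000467).

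The other 4 genes listed as heat-inducible were not called higher in cKit dKO. Hsph1 (HSP110, the exchange factor of inducible HSP70) had 102 and 127 CPM in cKit dKO, 162 and 153 CPM in cKit control, 162 and 145 CPM in Thy1 dKO and 141 and 143 CPM in Thy1 control. It fell in cKit dKO (-0.46 ± 0.13, edgeR adjusted p = 0.0137) but turned to 1.08 under germ cell scaling, against an all-gene median of 1.60. The call was lost without cKit control replicate 1 or cKit dKO replicate 1, with changes from -0.60 to -0.26 over the left-out libraries. Dnajb1, the main J partner of inducible HSP70, had 371 and 389 CPM in cKit dKO, 335 and 386 CPM in cKit control, 372 and 352 CPM in Thy1 dKO and 357 and 424 CPM in Thy1 control. Its groups overlapped, with a difference of 0.08 ± 0.12 in cKit (edgeR adjusted p = 0.668). Dnaja1 had 312 and 254 CPM in cKit dKO, 286 and 274 CPM in cKit control, 249 and 287 CPM in Thy1 dKO and 246 and 276 CPM in Thy1 control, also without separation (0.02 ± 0.12 in cKit, edgeR adjusted p = 0.941). Hspb1 (HSP27, a small heat shock protein) was low, with 6.72 and 5.18 CPM in cKit dKO, 1.91 and 5.87 CPM in cKit control, 8.11 and 5.72 CPM in Thy1 dKO and 6.05 and 5.75 CPM in Thy1 control. Only cKit control replicate 1 departed from the rest, and the cKit difference of 0.65 ± 0.48 did not pass (edgeR adjusted p = 0.340).

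**Figure D2:**
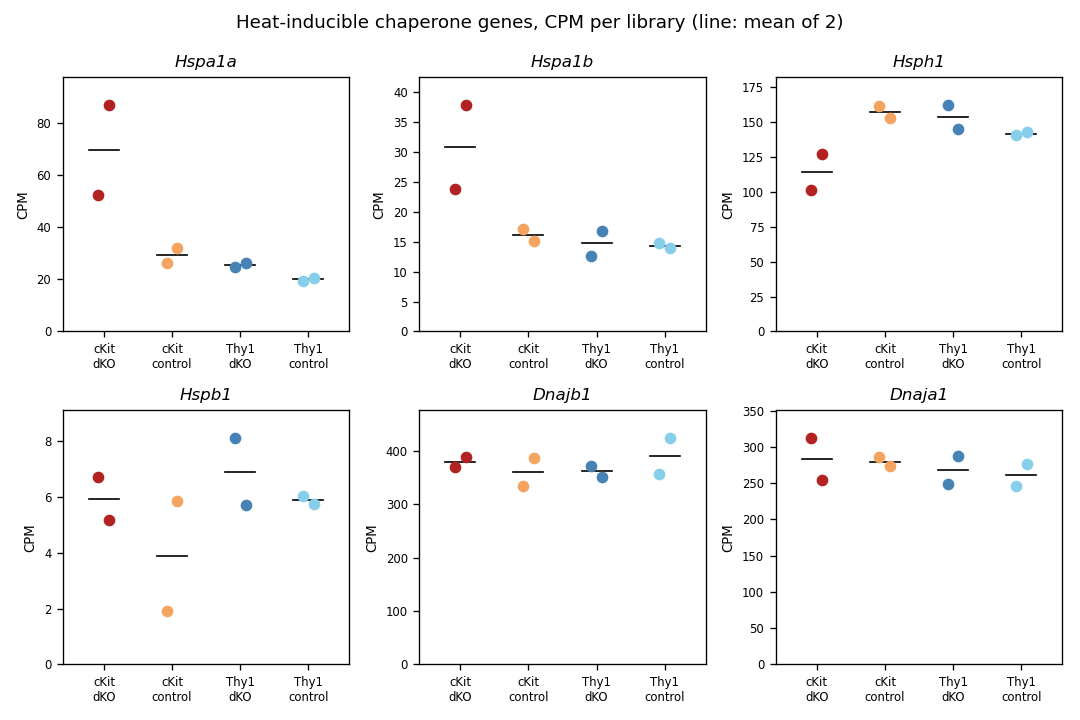
CPM of the 6 heat-inducible genes in each library (points) with the mean of 2 (lines). Hspa1a and Hspa1b are highest in both cKit dKO libraries, Hsph1 is lowest there (the fall flips to 1.08 under germ cell scaling), and Dnajb1 and Dnaja1 overlap across all groups.

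Of the 10 testis-specific or testis-enriched genes, 6 had enough counts to test. Hspa4l, an HSP110 gene enriched in male germ cells, lies at chromosome 3, 40745613 to 40790365. It had 12.0 and 16.8 CPM in cKit dKO, 72.3 and 50.7 CPM in cKit control, 42.5 and 43.4 CPM in Thy1 dKO and 66.0 and 56.8 CPM in Thy1 control. Both cKit dKO libraries lay below all others, and the fall was 4.28-fold (log2 fold change -2.10 ± 0.21, edgeR adjusted p = 9e-06). It passed without each library in turn (-2.33 to -1.81). The 26 core germ cell markers had a median of -1.60 in the same comparison, and with scaling on germ cell genes Hspa4l was at -0.54 and no longer passed (edgeR adjusted p = 0.0603).

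Dnajc5g, a testis member of the cysteine string protein family of J proteins, had 2 and 1 counts in cKit dKO, 57 and 18 in cKit control, 29 and 38 in Thy1 dKO and 31 and 45 in Thy1 control. The summed counts were 3 in cKit dKO and 75 in cKit control, a 16.3-fold lower share with an exact 95% interval of 5.36 to 80.7 that covers counting error only. The edgeR test passed (log2 fold change -3.86 ± 0.77, adjusted p = 0.0018), also without each library in turn. The size rests on few counts: it was -3.19 without cKit control replicate 1, which holds 57 of the 75 counts, and -4.38 without cKit dKO replicate 1.

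Hspa2, the HSP70 that meiotic germ cells need, had 34.1 and 35.9 CPM in cKit dKO, 29.1 and 36.9 CPM in cKit control, 39.8 and 41.8 CPM in Thy1 dKO and 32.7 and 25.6 CPM in Thy1 control. The cKit groups overlapped (0.09 ± 0.18, edgeR adjusted p = 0.755), while the 16 tested meiotic prophase markers had 12 lower and a median of -1.17. Hspa1l, the HSP70 of spermatids, had 1.44 and 3.61 CPM in cKit dKO, 2.60 and 2.17 CPM in cKit control, 0.563 and 1.36 CPM in Thy1 dKO and 4.08 and 1.29 CPM in Thy1 control. In each population the dKO and control libraries overlapped. Its exons share 71.9% of their bases with a gene on the opposite strand, so its counts are uncertain. Dnajb3 had 1.44 and 0.157 CPM in cKit dKO, 2.34 and 1.66 CPM in cKit control, 1.80 and 0.953 CPM in Thy1 dKO and 1.97 and 1.88 CPM in Thy1 control. The sperm flagellum gene Dnajb13 had 2.88 and 0.627 CPM in cKit dKO, 1.56 and 0.510 CPM in cKit control, 2.59 and 4.08 CPM in Thy1 dKO and 3.68 and 1.996 CPM in Thy1 control. Neither passed in cKit dKO (edgeR adjusted p = 0.255 and 0.558). The untested Hspb9, Dnajb7, Dnajb8 and Dnajc5b gave at most 5 counts in a library.

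Among the 20 genes listed as constitutive cytosolic or nuclear, 7 were lower and 1 higher in cKit dKO, and the class median was -0.42. Classes were set by list, and a class name does not settle where each protein lies in the cell. Over all genes tested, 15.4% were lower and 13.2% higher. Hspa8, the housekeeping HSP70 (HSC70), had overlapping groups in cKit, with 787 and 807 CPM in cKit dKO, 778 and 835 CPM in cKit control, 718 and 750 CPM in Thy1 dKO and 842 and 765 CPM in Thy1 control. Its cKit difference was -0.02 ± 0.10 (edgeR adjusted p = 0.917).

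Hspa4 (APG-2, an HSP110 exchange factor) had 525 and 618 CPM in cKit dKO, 923 and 902 CPM in cKit control, 883 and 889 CPM in Thy1 dKO and 828 and 950 CPM in Thy1 control. The 2 cKit dKO libraries stood alone below the others, with a change of -0.67 ± 0.11 against cKit control (edgeR adjusted p = 0.000324), although the value turned to 0.88 under germ cell scaling, below the all-gene median of 1.60. With Hsph1 and Hspa4l, all 3 cytosolic HSP110 genes were lower in cKit dKO on transcriptome scaling, Hsph1 and Hspa4 being positive and Hspa4l not past the test under germ cell scaling.

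Dnaja2, a J protein that works with HSC70, had 124 and 133 CPM in cKit dKO, 211 and 210 CPM in cKit control, 201 and 199 CPM in Thy1 dKO and 204 and 235 CPM in Thy1 control (-0.71 ± 0.11, edgeR adjusted p = 0.000322, or 0.85 under germ cell scaling). Dnajc2 (MPP11) and Hspa14 form the ribosome-associated complex that meets nascent chains. Dnajc2 had 54.3 and 76.2 CPM in cKit dKO, 156 and 139 CPM in cKit control, 107 and 102 CPM in Thy1 dKO and 123 and 134 CPM in Thy1 control. Its fall was 2.26-fold (-1.18 ± 0.15, edgeR adjusted p = 5.6e-05), and the value was 0.36 under germ cell scaling. Hspa14 had 29.6 and 27.6 CPM in cKit dKO, 44.3 and 44.2 CPM in cKit control, 47.1 and 47.8 CPM in Thy1 dKO and 44.8 and 43.9 CPM in Thy1 control (-0.63 ± 0.15, edgeR adjusted p = 0.00646, or 0.94 under germ cell scaling). Both partners of the complex were lowest in the cKit dKO libraries, and the calls of Hspa4, Dnaja2, Dnajc2 and Hspa14 held without each library in turn.

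Dnajc16, Dnajc13 (an endosomal J protein) and Dnajc9 (a histone chaperone) made smaller steps, with log2 fold changes of -0.74 ± 0.22, -0.47 ± 0.12 and -0.44 ± 0.14 (edgeR adjusted p = 0.0218, 0.00845 and 0.0329), each positive under germ cell scaling. Calls of Dnajc16 and Dnajc13 were lost without cKit control replicate 1 or cKit dKO replicate 2, where adjusted p reached 0.156 and 0.0828. Dnajc9 lost its call in 6 of the 8 fits that each left out a library (-0.54 to -0.27 over all 8), all but those without Thy1 control replicate 1 or cKit control replicate 2. Its call also did not hold under 5 of the 9 other settings. Among them were germ cell scaling, DESeq2 and the 4 cKit libraries alone (adjusted p up to 0.0901). Dnajc18 was the class's only higher gene, at 153 and 129 CPM in cKit dKO against 106 and 102 CPM in cKit control (0.44 ± 0.13, edgeR adjusted p = 0.021). Without either cKit control library or cKit dKO replicate 1 it no longer passed (0.355 to 0.59 over all libraries left out). Its call did not hold under 2 of the 9 other settings, among them the deposited RPKM (0.08, limma adjusted p = 0.723).

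Of the 8 genes listed under the endoplasmic reticulum, 1 was lower and 0 higher in cKit dKO, with a median of -0.08. The shares of all genes tested were 15.4% lower and 13.2% higher. Hspa5 had 697 and 666 CPM in cKit dKO, 682 and 641 CPM in cKit control, 599 and 670 CPM in Thy1 dKO and 576 and 534 CPM in Thy1 control, a cKit difference of 0.04 ± 0.10 (edgeR adjusted p = 0.793). Dnajb11 (ERdj3), which hands clients to BiP, was the lower gene, at 75.6 and 94.3 CPM in cKit dKO against 115 and 126 CPM in cKit control (-0.50 ± 0.13, edgeR adjusted p = 0.0107, or 1.03 under germ cell scaling). It no longer passed without cKit control replicate 2 or cKit dKO replicate 1 (adjusted p up to 0.140).

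Of the 9 mitochondrial genes, 1 was lower and 1 higher in cKit dKO, beside 15.4% and 13.2% of all genes tested. Hspe1 (HSP10, the lid of HSP60) had 73.2 and 85.3 CPM in cKit dKO against 97.1 and 127 CPM in cKit control (-0.50 ± 0.16, edgeR adjusted p = 0.030), positive at 1.03 under germ cell scaling and lost without cKit control replicate 2 or cKit dKO replicate 1 (adjusted p up to 0.337), with DESeq2 and with the largest entry per symbol (adjusted p up to 0.0641). Its partner Hspd1 had 542 and 542 CPM in cKit dKO against 538 and 623 CPM in cKit control and did not pass (-0.10 ± 0.12, edgeR adjusted p = 0.583). Hspa9 (mortalin, the mitochondrial HSP70) had 246 and 241 CPM in cKit dKO against 258 and 269 CPM in cKit control (-0.11 ± 0.12, edgeR adjusted p = 0.526). Dnajc30, a J protein bound to the ATP synthase, had 21.6 and 21.8 CPM in cKit dKO, 9.18 and 12.4 CPM in cKit control, 10.9 and 9.80 CPM in Thy1 dKO and 12.5 and 6.57 CPM in Thy1 control, a change of 1.02 ± 0.30 (edgeR adjusted p = 0.0195). Of its exon bases, 26.2% overlap Bud23 on the opposite strand, and the call was lost without cKit control replicate 1 (adjusted p = 0.163) and on the deposited RPKM (0.60, limma adjusted p = 0.0911).

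The class of muscle, neural and other tissue-restricted genes had 3 higher and 1 lower of 11 tested, from 14. Over all genes tested in cKit dKO, 13.2% were higher and 15.4% lower. Hspb7 (cvHSP, of heart and muscle) had 23.7 and 28.7 CPM in cKit dKO, 8.83 and 13.0 CPM in cKit control, 16.2 and 10.6 CPM in Thy1 dKO and 17.2 and 9.51 CPM in Thy1 control (1.27 ± 0.31, edgeR adjusted p = 0.00682). Hspb6 (HSP20, of smooth muscle) had 36.8 and 53.6 CPM in cKit dKO, 24.3 and 26.0 CPM in cKit control, 16.9 and 18.0 CPM in Thy1 dKO and 27.4 and 15.0 CPM in Thy1 control (0.85 ± 0.25, edgeR adjusted p = 0.0203). Dnajb4, a stress-responsive J protein of muscle, had 88.9 and 72.1 CPM in cKit dKO against 56.3 and 58.8 CPM in cKit control (0.48 ± 0.14, edgeR adjusted p = 0.0204).

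All 3 lost their call without cKit control replicate 1, Hspb6 also without cKit dKO replicate 2 and Dnajb4 also without cKit dKO replicate 1, with adjusted p up to 0.0935, 0.132 and 0.112. None of the 3 passed on the deposited RPKM, where the changes of Hspb7, Hspb6 and Dnajb4 were 0.73, 0.45 and 0.18 (limma adjusted p = 0.0608, 0.23 and 0.367). On the entry of Dnajb4 with most counts alone the change was 1.33 (edgeR adjusted p = 0.0697). Of the 9 other settings, 4 did not keep the call of Dnajb4, 2 that of Hspb6 and 1 that of Hspb7. Beside these genes, 7 of the 12 peritubular and stromal markers were higher in cKit dKO and 0 lower, with a median of 0.72. Of the 10 endothelial markers, 4 were higher and 0 lower, with a median of 1.02. In cKit dKO against Thy1 dKO, 0 peritubular and stromal markers were higher and 10 lower (median -1.46), and 0 endothelial markers were higher and 1 lower. There Hspb6 and Hspb7 were called higher (1.15 to 1.71 and 0.69 to 1.30 over the libraries left out), and Dnajb4 did not pass. That call of Hspb7 was lost without Thy1 dKO replicate 2 or cKit dKO replicate 2. It also did not hold under 2 of the 9 other settings. The part of these cell types was not tested. The perlecan gene Hspg2 had 2181 and 2175 CPM in cKit dKO against 1401 and 1644 CPM in cKit control (0.52 ± 0.11, edgeR adjusted p = 0.00258, but 0.17 on RPKM with limma adjusted p = 0.379).

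Dnajc6 (auxilin, which strips clathrin coats, mainly in neurons) had 2 and 2 counts in cKit dKO, 32 and 10 in cKit control, 24 and 15 in Thy1 dKO and 18 and 25 in Thy1 control. The 4 counts of cKit dKO against 42 of cKit control gave a 6.84-fold lower share (exact 95% interval 2.48 to 26.3, counting error only), with edgeR adjusted p = 0.0249. That call was lost without cKit control replicate 1 or without either cKit dKO library (-3.02 to -1.96 over all libraries left out). It also did not hold under 3 of the 8 other settings, among them RPKM (limma adjusted p = 0.124) and germ cell scaling (-1.10, edgeR adjusted p = 0.288). Hspbap1, a binding partner of HSP27 matched by name only, had 9.13 and 9.41 CPM in cKit dKO against 16.5 and 15.7 CPM in cKit control (-0.80 ± 0.25, edgeR adjusted p = 0.0245). It was at 0.76 under germ cell scaling and lost its call without any 1 of the 4 cKit libraries (adjusted p up to 0.109), with DESeq2 and with the 4 cKit libraries alone (adjusted p up to 0.0759).

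In Thy1 dKO against Thy1 control, 0 of the 65 tested genes passed the edgeR test, beside 0.624% of all genes tested (0.362% higher and 0.262% lower), while an unadjusted p under 0.05 was found for 8. The nearest was Dnajc3 (p58IPK, an inhibitor of the kinase PERK), with 140 and 138 CPM in Thy1 dKO against 95.3 and 102 CPM in Thy1 control. The groups did not overlap, but the change of 0.49 ± 0.12 had an edgeR adjusted p of 0.0593. It passed with DESeq2 (adjusted p = 0.012), with all genes unfiltered, with the 4 Thy1 libraries alone, and without either cKit dKO library. Hspa4l was lower in direction in Thy1 dKO as well, at -0.52 ± 0.19 with edgeR adjusted p = 0.225, and it passed with the 4 Thy1 libraries alone (-0.54, edgeR adjusted p = 0.0253). Hspa1a stood at 0.36 ± 0.23 (edgeR adjusted p = 0.515) and Hspa1b at 0.04 ± 0.26 (edgeR adjusted p = 0.973).

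The dKO change in cKit was then set against that in Thy1 in a single test of the difference. It passed for 6 of the 65 genes, 1 higher and 5 lower, or 9.23% beside 5.92% of all genes tested (1.86% higher and 4.06% lower). Hspa4l differed by -1.58 ± 0.28 (edgeR adjusted p = 0.00478) and kept the call without each library in turn (-1.78 to -1.28), but under germ cell scaling it differed by -0.36 and did not pass (edgeR adjusted p = 0.398). Dnajc5g differed by -3.71 ± 0.96, Dnajc2 by -0.88 ± 0.21, Hspa4 by -0.67 ± 0.15 and Dnaja2 by -0.58 ± 0.16 (edgeR adjusted p = 0.033, 0.022, 0.0171 and 0.0434). Dnajb4 differed by 0.81 ± 0.20 (edgeR adjusted p = 0.0263), with 110 and 92.0 CPM in Thy1 dKO against 119 and 134 CPM in Thy1 control and the opposite order in cKit.

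The 5 genes other than Hspa4l each lost this call in 5 to 8 of the 8 fits that left out a library, and Dnajc2, Hspa4 and Dnaja2 turned positive under germ cell scaling (0.33, 0.54 and 0.64, beside an all-gene median of 1.20). With the largest entry per symbol only Hspa4l passed. The difference for Hspa1a was 0.90 ± 0.31 (edgeR adjusted p = 0.104) and for Hspa1b 0.89 ± 0.36 (edgeR adjusted p = 0.167), and for both counted together 0.92 ± 0.28 (edgeR adjusted p = 0.0634). The rise of the pair is therefore not shown to differ between the populations at this number of libraries. In the same test of the difference, 6 of the 12 peritubular and stromal markers were higher and 0 lower (median 1.184). Of the 26 core germ cell markers, 0 were higher and 16 lower (median -1.345). Over all genes tested 1.86% were higher and 4.06% lower. The part of these cell types in the 6 calls was not tested.

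**Figure D3:**
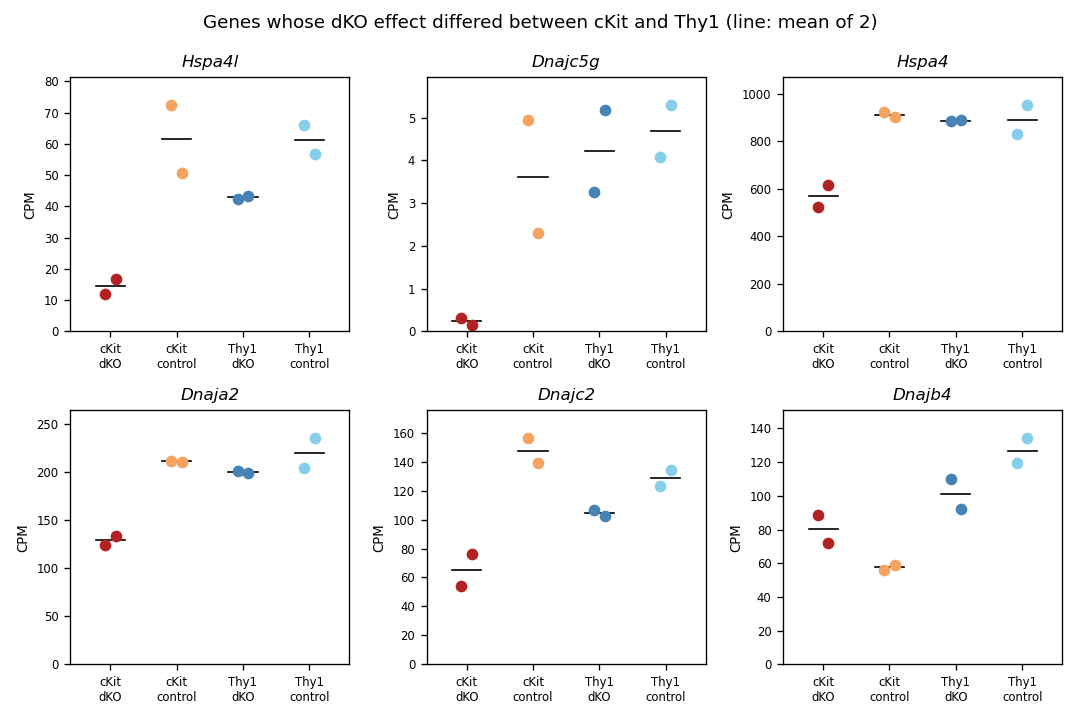
CPM per library (points) and mean of 2 (lines) of the 6 genes whose dKO change differed between cKit and Thy1. In 5 genes the cKit dKO libraries are the lowest, while Dnajb4 is higher in cKit dKO than in cKit control and lower in Thy1 dKO than in Thy1 control. Under germ cell scaling the differences of Hspa4, Dnaja2 and Dnajc2 turn positive.

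Between the control populations, cKit control against Thy1 control, 13 of the 65 genes passed, 10 higher and 3 lower, or 20.0% against 19.7% of all genes tested (9.46% higher and 10.3% lower). Of the mitochondrial chaperones, 5 of 9 were higher and 0 lower, with a median of 0.49 against 0.01 for all genes. The Leydig markers, 8 of 8 higher, moved with them here. In cKit dKO against cKit control 5 Leydig markers were higher and 1 lower (median 0.47), while the mitochondrial class had 1 higher and 1 lower (median -0.10). The part of the Leydig markers was not tested.

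Hspd1 and Hspe1 are neighbours on chromosome 1 (mm10 55077834 to 55087932 and 55088148 to 55091317), run in opposite directions and share a promoter between their starts. The RefSeq window of Hspe1 is shown for that reason. It shares 285 of its 300 bases with that of Hspd1 and holds 3 overlapping matches to the heat shock element core, in capitals, from 89 bases before the Hspe1 start.
Hspe1, chr1:55087898-55088197, forward strand: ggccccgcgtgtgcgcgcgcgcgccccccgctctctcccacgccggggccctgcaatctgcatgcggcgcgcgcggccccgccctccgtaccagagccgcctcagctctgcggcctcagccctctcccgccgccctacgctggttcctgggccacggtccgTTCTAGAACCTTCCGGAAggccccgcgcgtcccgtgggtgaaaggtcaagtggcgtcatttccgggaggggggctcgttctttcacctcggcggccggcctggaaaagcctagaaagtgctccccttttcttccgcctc

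Hspd1 had 538 and 623 CPM in cKit control, against 250 and 306 CPM in Thy1 control, and 542 and 542 CPM in cKit dKO, against 303 and 269 CPM in Thy1 dKO. The 4 cKit libraries lay above the 4 Thy1 libraries, 2.09-fold in controls (1.06 ± 0.12, edgeR adjusted p = 1.4e-05). Hspe1 had 97.1 and 127 CPM in cKit control against 61.8 and 74.7 CPM in Thy1 control, and 73.2 and 85.3 CPM in cKit dKO against 61.8 and 52.3 CPM in Thy1 dKO. It was 0.71 ± 0.16 higher in cKit control (edgeR adjusted p = 0.0048), a call lost without Thy1 control replicate 1 or cKit control replicate 2 (adjusted p up to 0.0841). Both genes had higher means in cKit than in Thy1 libraries of either genotype. Whether the pair differs in its dKO change was not tested.

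Dnajc15 (MCJ, a J protein of the inner mitochondrial membrane) had 49.0 and 46.6 CPM in cKit control against 12.4 and 20.0 CPM in Thy1 control, and 58.1 and 56.6 CPM in cKit dKO against 24.8 and 24.0 CPM in Thy1 dKO. This was the largest rise of the family between controls, 2.95-fold (1.56 ± 0.20, edgeR adjusted p = 4.4e-05). Dnajc11, of the contact sites of the inner membrane, had 51.7 and 51.7 CPM in cKit control against 32.5 and 31.8 CPM in Thy1 control (0.69 ± 0.15, edgeR adjusted p = 0.00452). Hspa9 had 258 and 269 CPM in cKit control against 168 and 208 CPM in Thy1 control, and 246 and 241 CPM in cKit dKO against 221 and 193 CPM in Thy1 dKO. Its rise of 0.49 ± 0.12 (edgeR adjusted p = 0.0103) was lost without Thy1 control replicate 1 or cKit control replicate 2 (adjusted p up to 0.152).

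Hspa12a, a distant HSP70 relative, had 359 and 491 CPM in cKit control against 155 and 211 CPM in Thy1 control, and 573 and 471 CPM in cKit dKO against 222 and 196 CPM in Thy1 dKO. The populations did not overlap (1.21 ± 0.17 in controls, edgeR adjusted p = 7.6e-05). Smaller rises were those of Dnajc21 (0.62 ± 0.15, edgeR adjusted p = 0.00805) and Dnajb12 (0.55 ± 0.19, edgeR adjusted p = 0.049), listed here as constitutive. Also smaller were those of Dnajb11 (0.42 ± 0.13, edgeR adjusted p = 0.0351) and Dnajc3 (0.37 ± 0.12, edgeR adjusted p = 0.0318), listed under the endoplasmic reticulum. Dnajc21 lost its call without Thy1 control replicate 1 or cKit control replicate 2, and the other 3 without any 1 of 6 libraries, all but those of cKit dKO. Adjusted p then reached 0.129, 0.211, 0.202 and 0.200, in the order named. The call of Dnajb12 also ended under 7 of the 9 other settings (adjusted p up to 0.0811), that of Dnajc3 with only the compared libraries and that of Dnajb11 with the largest entry per symbol.

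**Figure D4:**
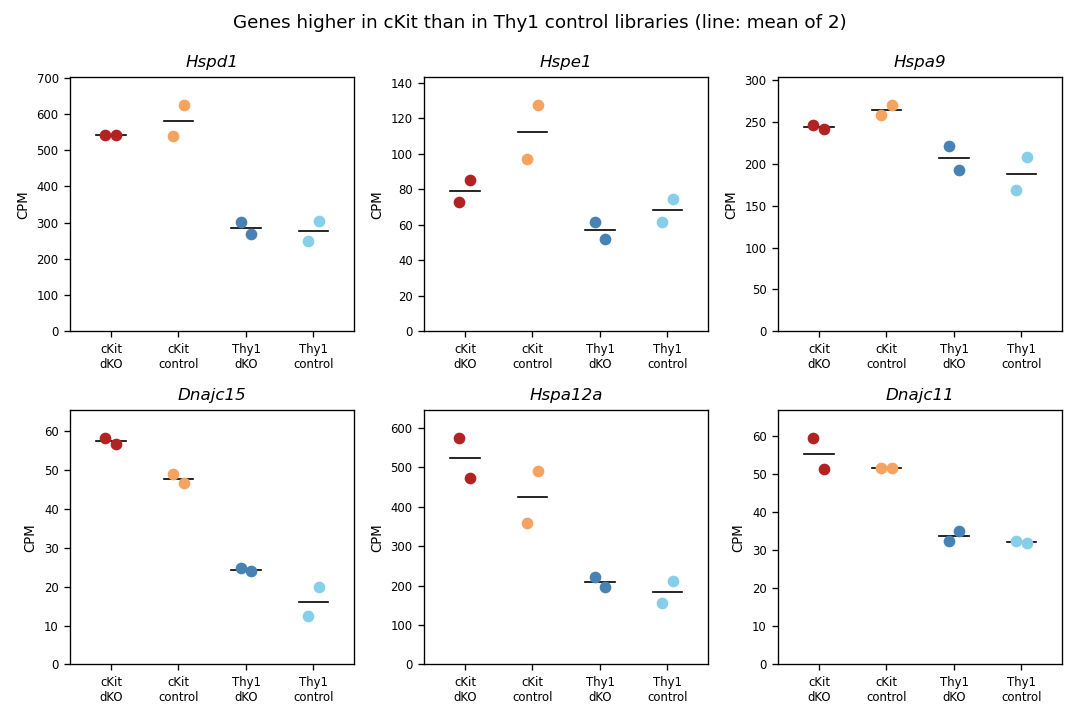
CPM per library (points) and mean of 2 (lines) of 6 genes that were higher in cKit control than in Thy1 control, 5 of them mitochondrial. All 4 cKit libraries lie above all 4 Thy1 libraries for Hspd1, Hspa9, Dnajc15, Hspa12a and Dnajc11, whereas cKit dKO replicate 1 of Hspe1 lies below the higher Thy1 control library.

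The other 3 called genes were lower in cKit control. Dnajb4 had 56.3 and 58.8 CPM in cKit control against 119 and 134 CPM in Thy1 control (-1.14 ± 0.14, edgeR adjusted p = 3.2e-05). Dnajc10 (ERdj5, a disulfide reductase) had 97.3 and 101 CPM in cKit control against 137 and 151 CPM in Thy1 control (-0.54 ± 0.12, edgeR adjusted p = 0.00388). That call was lost without Thy1 control replicate 2 (adjusted p = 0.0553), on RPKM (-0.28, limma adjusted p = 0.105) and under germ cell scaling (-0.11, edgeR adjusted p = 0.750). Hspb8 (HSP22, of muscle and motor neurons) had 1.47 and 1.53 CPM in cKit control against 13.7 and 4.93 CPM in Thy1 control. The fall of 2.62 ± 0.55 (edgeR adjusted p = 0.003) rested on Thy1 control replicate 1, without which it was 1.71 with an adjusted p of 0.128. The peritubular and stromal markers, 12 of 12 lower, and the macrophage markers, 9 of 11 lower with a median of -1.94, moved with these genes, and their part was not tested.

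Of the heat-inducible and testis classes, 0 of 6 and 0 of 6 tested genes passed between the controls, beside 19.7% of all genes tested. With so few genes, these counts do not show that the classes are unchanged. Hspa1a, at 0.54 ± 0.22 with edgeR adjusted p = 0.103, came nearest. In cKit dKO against Thy1 dKO 23 genes passed, 13 higher and 10 lower, or 35.4% against 34.8% of all genes tested (14.8% higher and 20.0% lower). Hspa1a was 1.45 ± 0.22 and Hspa1b 1.07 ± 0.25 higher (edgeR adjusted p = 0.00013 and 0.00431), the call of Hspa1b being lost without Thy1 dKO replicate 1 (adjusted p = 0.0713). Hspa4l was lower (-1.57 ± 0.21, edgeR adjusted p = 5.1e-05, or 0.04 under germ cell scaling). Hspd1, Dnajc15, Dnajc11 and Hspa12a kept the order of the controls, at 0.92 ± 0.12, 1.23 ± 0.20, 0.72 ± 0.15 and 1.32 ± 0.17 (edgeR adjusted p = 4e-05, 0.000213, 0.00217 and 2.7e-05). Comparisons that use the same libraries are not independent of each other.

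The machinery around HSP70 was read from lists of other genes. In cKit dKO, HSP90 and its cochaperones had 0 higher and 4 lower of 17, with a median of -0.09. Over all genes tested in that comparison 28.6% passed, 13.2% higher and 15.4% lower. Hsp90aa1, the inducible HSP90 and itself an HSF1 target, averaged 258 ± 14.4 CPM in cKit dKO and 507 ± 72.3 CPM in cKit control (SD, n = 2 each), a change of -0.97 ± 0.12 (edgeR adjusted p = 3.5e-05). Its constitutive counterpart Hsp90ab1 did not pass (-0.12 ± 0.08, edgeR adjusted p = 0.316). The other lower genes were Fkbp4 (-0.77 ± 0.13), Ppid (-0.73 ± 0.18) and Ptges3 (-0.45 ± 0.14), all cochaperones of HSP90 (edgeR adjusted p = 0.000441, 0.00656 and 0.0229). Under germ cell scaling all 4 had positive values (0.61 to 1.11), below the all-gene median of 1.60. The difference of dKO changes between the populations passed for Hsp90aa1 (-0.66 ± 0.16, edgeR adjusted p = 0.0263) but was 0.59 under germ cell scaling. On the lists read below, 1 CCT or prefoldin gene and 2 of 5 tested heat shock factor genes also passed, all lower. So did 3 of 22 immediate early genes, all higher. Under germ cell scaling the CCT or prefoldin gene was at 0.36, whereas the 2 heat shock factor genes stayed negative (-0.81 and -0.45).

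The CCT chaperonin and prefoldin list had 0 higher and 7 lower of 13 tested in cKit dKO, with a median of -0.49. The shares over all genes tested were 13.2% higher and 15.4% lower. All 7 were CCT subunits, led by Cct8 (-0.93 ± 0.12) and Tcp1 (-0.74 ± 0.11), with edgeR adjusted p = 7.5e-05 and 0.000209. Under germ cell scaling all 7 had positive values, up to 1.26. Among 11 exchange factors, Bag3 was higher (0.47 ± 0.13) and Hyou1 (-0.69 ± 0.12) and Bag4 (-0.64 ± 0.17) were lower (edgeR adjusted p = 0.0138, 0.000664 and 0.00938). Hsf1, the heat shock factor of the stress response, did not pass (-0.16 ± 0.16, edgeR adjusted p = 0.481), whereas Hsf2, a factor active in testis, was lower (-0.73 ± 0.16, edgeR adjusted p = 0.00344), as was the Hsf2 binding partner Hsf2bp (-1.28 ± 0.41, edgeR adjusted p = 0.0294). The 2 lower exchange factors and the 2 lower heat shock factor genes were also positive under germ cell scaling (0.88 to 0.93 and 0.22 to 0.82).

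The unfolded protein response list had 3 higher and 2 lower of 19 tested, beside 13.2% higher and 15.4% lower over all genes tested. The higher genes were Herpud1 (0.86 ± 0.22), Ppp1r15a (0.73 ± 0.16) and Atf4 (0.57 ± 0.17), and the lower were Creld2 (-0.95 ± 0.19) and Pdia4 (-0.49 ± 0.13), with edgeR adjusted p = 0.00791, 0.00295, 0.0196, 0.00173 and 0.0114. Under germ cell scaling the 2 lower genes were at 0.61 and 1.07. Between the controls 8 of these 19 were higher in cKit control and 0 lower, beside 9.46% and 10.3% of all genes tested. In Thy1 dKO, 0 genes of each of these lists passed, beside 0.624% of all genes tested.

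Immediate early genes, which respond within minutes to growth factors, stress and tissue dissociation, moved with the inducible HSP70 pair. In cKit dKO 16 of 22 were higher and 0 lower, with a median of 0.65, beside 13.2% and 15.4% of all genes tested. The list summed to 15940 and 20820 CPM in cKit dKO against 10620 and 12410 CPM in cKit control. It summed to 9207 and 11300 CPM in Thy1 dKO against 9450 and 9356 CPM in Thy1 control. In both the list and Hspa1a, cKit dKO replicate 2 was the highest library of the 8. The part of this shift, and of the cell makeup, in the rise of Hspa1a and Hspa1b was not tested.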

How the data were processed

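RNA from sorted cells was isolated with an RNeasy micro kit and amplified with NuGEN Ovation v2 before Nextera XT library construction, per the labels' protocols. The submitters' processing notes name STAR 2.4.2a and the mm10 build. The counting tool and its strand setting are not given in the sources used here. The deposited counts are whole numbers per RefSeq entry, and the deposited RPKM values are named so per the file headers. Counts were summed per symbol (7 of the 72 genes had several entries) and tested with edgeR 4.0.16 in R 4.3.3: filterByExpr by group, TMM, 4 group means over all 8 libraries (4 residual degrees of freedom), two-sided quasi-likelihood F tests and Benjamini-Hochberg adjustment at 0.05, checked on simulated counts. Alternatives used limma 3.58.1 on log2(RPKM + 0.5) and DESeq2 1.42.0. Amplified libraries carry no molecular identifiers. The members and lists were chosen with earlier results of these data known. Per-library values were given for a fixed set of genes and for the 5 higher and 5 lower called genes of largest change in each comparison of dKO with control and in that of the control populations. Those of the genes whose dKO changes differed, and of Dnajc18, Dnajb11, Hspg2 and Dnajc3, were added after their values were seen.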

Additional observations from a re-analysis of the deposited data

Results flagged for a closer look

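The change in cKit dKO against cKit control differed from that in Thy1 dKO against Thy1 control for 6 genes, each by the edgeR test of the difference itself (adjusted p = 0.00478 to 0.0434). On the log2 scale the difference was -3.71 for Dnajc5g, -1.58 for Hspa4l, -0.88 for Dnajc2, -0.67 for Hspa4, -0.58 for Dnaja2 and 0.81 for Dnajb4. Of the 6, only Hspa4l kept this call without each library in turn, and only Hspa4l passed with the largest entry per symbol. Under germ cell scaling Hspa4l did not pass either, and Dnajc2, Hspa4 and Dnaja2 turned positive. With 2 libraries a group, no search for single outlying libraries was made.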

How the results depend on the processing

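Among called gene values recomputed under other settings, 490 kept direction and call, 58 lost the call and 22 reversed. With 1 library left out, 402 kept the call and 110 lost it. The reversals all came from scaling on germ cell genes. This made the cKit dKO changes 0.85 (Dnaja2), 1.03 (Dnajb11), 1.11 (Dnajc13), 0.86 (Dnajc16), 0.36 (Dnajc2), 1.13 (Dnajc9), 0.94 (Hspa14), 0.88 (Hspa4), 0.76 (Hspbap1), 1.03 (Hspe1) and 1.08 (Hsph1). It made those of cKit dKO against Thy1 dKO 1.01 (Dnaja2), 0.83 (Dnajc10), 1.25 (Dnajc13), 0.94 (Dnajc2), 0.92 (Hspa14), 1.0 (Hspa4), 0.039 (Hspa4l) and 1.21 (Hsph1), and the differences of dKO changes 0.64 (Dnaja2), 0.33 (Dnajc2) and 0.54 (Hspa4). The all-gene medians were then 1.60, 1.57 and 1.20, and 0.37 in Thy1 dKO and 0.43 between controls. Deposited RPKM moved the cKit dKO median to -0.20.

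With germ cell scaling the genes called numbered 58 in cKit dKO (57 higher), 21 between controls, 59 between dKO populations and 40 in the difference of changes. The difference had 11 calls without a filter, 10 with limma on RPKM and 1 with the largest entry per symbol. Thy1 dKO had 1 call without a filter, 1 with DESeq2 and 2 with only its own libraries. Leaving out each library gave 0 to 1 calls in Thy1 dKO, 11 to 22 in cKit dKO (lowest without cKit control replicate 1), 6 to 15 between controls (6 without Thy1 control replicate 1, 7 without cKit control replicate 2), 15 to 24 between dKO populations (lowest without Thy1 dKO replicate 1) and 1 to 6 in the difference (1 without Thy1 control replicate 1, either Thy1 dKO library or cKit control replicate 1, and 3 without Thy1 control replicate 2). Where 1 library was left, it was assumed to vary like the other groups.

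Replicate numbers did not pair the libraries (correlations of deviations -0.045 to 0.052). With a replicate block, 23 genes passed in cKit dKO, 12 between controls, 24 between dKO populations, 6 in the difference and 0 in Thy1 dKO. The cause of these shifts was not tested. Fits to 2 libraries a group set the limit: a change that missed the threshold is not shown to be absent, and genes under 5 CPM rest on few counts.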
